A study of Mus musculus with 3 samples.

Results

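The Ifi200 family (PYHIN family) of interferon-inducible genes was followed in VE-cadherin+/CD45+ cells sorted from mouse yolk sac. Members were all non-control probes whose gene name in the array files was Ifi202b, Ifi203, Ifi204, Ifi205, Mnda, Mndal, Aim2 or Pyhin1, together with the probe whose transcript is now named Ifi207. Of these 9 genes, 8 had a probe by this rule, with 15 probes among 36095 genes and unnamed targets on the array. The family was picked because its members shifted in opposite directions between the arrays described here. The members' values are therefore given as a description, with no test. Ifi205 had no probe under its own name, and the array files list its transcript beside that of Mnda for 1 shared probe.

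The Tie-2-Etv2 group held 2 arrays (replicates 1 and 2) of cells from embryos in which a Tie-2-driven Cre transgene turned on a second transgene carrying Etv2, which encodes an ETS-family regulator needed for the first blood and endothelial cells. The control group held 1 array of cells from the yolk sac of control embryos at E10.5 (embryonic day), and that age is given for the control alone. The same surface sort, tissue and strain description apply to both groups, the strain being a mixture of B6/CBA with others. Tie-2 (Tek) is active in endothelial cells and in part of the blood lineage, which limits where the transgene is switched on. The labels do not say whether the Tie-2-Etv2 replicates are separate embryos, litters or pools. What the spread between them stands for, biological or technical, is therefore not known. RNA of each sample was hybridised in 1 colour to its own array on a shared slide.

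PYHIN proteins pair an N-terminal pyrin domain, which binds other pyrin domains, with C-terminal HIN domains, which bind DNA. In cells of the immune system they are known as sensors of DNA in the cytosol and nucleus and as regulators of growth and transcription, and many of the genes are switched on by type I interferon. In the mouse the genes lie side by side on chromosome 1 in a cluster that grew by duplication, so that neighbouring members are close copies and the locus differs between inbred strains.

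Because the copies are so alike, the array probes themselves are shown first. Each is a 60-base oligonucleotide printed 5′ to 3′, on the minus strand of chromosome 1 in build mm9. These probes, named by gene, read members that differ between the arrays.
Ifi207: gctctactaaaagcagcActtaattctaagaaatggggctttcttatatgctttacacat
Ifi204 probe 1: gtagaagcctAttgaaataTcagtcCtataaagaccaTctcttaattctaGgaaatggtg
Ifi204 probe 2: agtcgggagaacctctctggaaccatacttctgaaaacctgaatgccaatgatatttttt
Mndal: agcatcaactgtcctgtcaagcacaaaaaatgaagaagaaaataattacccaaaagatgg
Mnda: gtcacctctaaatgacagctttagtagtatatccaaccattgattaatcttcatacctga
Ifi203 probe 4: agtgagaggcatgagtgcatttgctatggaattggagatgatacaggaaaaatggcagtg
Ifi202b probe 1: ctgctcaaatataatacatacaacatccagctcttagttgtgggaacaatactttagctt
Ifi202b probe 2: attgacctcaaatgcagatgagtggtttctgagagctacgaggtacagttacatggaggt
The Ifi207 probe lies at chr1:175653663-175653722, Ifi204 probe 2 at chr1:175677647-175677706 and the Mndal probe at chr1:175787550-175787609. The Mnda probe lies at chr1:175826600-175826659 and Ifi203 probe 4 at chr1:175854206-175854265, while Ifi202b probe 2 spans chr1:175892953-175893982, longer than its own length. Capitals in the Ifi207 sequence and in that of Ifi204 probe 1 mark bases that differ from a near-copy described further on. Whether a probe position is coding or not is not given in the array files.

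Well above background, the scanner software's own call, were 24222 probes on replicate 1, 27018 on replicate 2 and 25466 on the control. Replicate 1 was the dimmest array, with a 75th percentile of 1199 intensity units over shared detected probes, against 2092 on replicate 2 and 2073 on the control. Levels below are log2 signals relative to that percentile, and differences are levels on a Tie-2-Etv2 array minus the control level. Etv2 itself was 21.5-fold higher than control on replicate 1 and 9.30-fold higher on replicate 2 (limma adjusted p = 0.236). Cdh5, which encodes VE-cadherin, had levels of 0.39 and -1.48 in the Tie-2-Etv2 arrays and -4.08 in the control, while Ptprc, which encodes CD45, had -1.51 and -1.58 against -1.08. In limma over 26217 probes no gene passed an adjusted p of 0.05, the lowest being 0.199, and 2110 of 19583 genes had an unadjusted p under 0.05. In these bulk samples, fewer cells of a type and less RNA per cell cannot be told apart.

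Of the 15 member probes, 12 entered the comparison because they were well above background on the control or on both Tie-2-Etv2 arrays, and they covered all 8 members with a probe. Represented by its brightest probe, 1 member (Ifi203) was at least 2-fold higher than control on both Tie-2-Etv2 arrays, where 3.92% of all tested genes were. Ifi207 and Ifi204, 2 of the 8, were at least 2-fold lower on both, where 6.64% of all tested genes were. The other 5 did neither. On replicate 1 taken alone, 2 members were 2-fold higher and 4 lower, beside 9.06% and 11.3% of all genes. On replicate 2 taken alone, 1 was higher and 3 were lower, beside 4.58% and 8.34% of all genes. The median difference over the 8 members was -0.94 on replicate 1 and -0.20 on replicate 2, while the medians over all tested genes were 0.08 and 0.05. Since the family was chosen on this contrast, nothing is read from these shares.

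**Figure D1:**
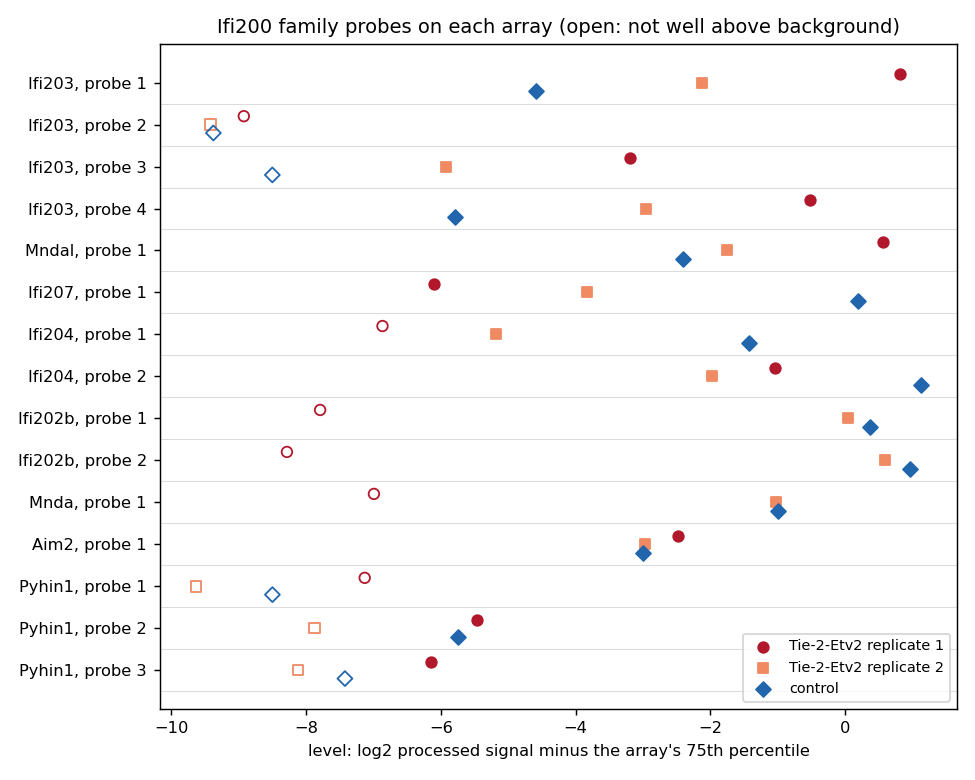
Level of each family probe on each array (log2 processed signal minus the array's 75th percentile, horizontal axis), with 1 row per probe; circles are Tie-2-Etv2 replicate 1, squares Tie-2-Etv2 replicate 2, diamonds the control, and open symbols mark probes not well above background. The 3 arrays are ordered one way for Ifi203 and Mndal and the opposite way for Ifi207, while Ifi202b and Mnda differ on replicate 1 alone.

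Ifi207 was the lowest member that was detected on every array. Its probe had a processed signal of 17.4 on replicate 1 and 147 on replicate 2, against 2367 intensity units on the control. The levels of -6.10 and -3.83 stood against 0.19 in the control, so the control was above the 75th percentile of its array while both Tie-2-Etv2 arrays were far below theirs. The differences of -6.29 and -4.02 amount to 78.4-fold and 16.2-fold lower signals, with a mean of -5.16 ± 1.61 (SD, n = 2).

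Ifi204, whose mouse protein is described as a DNA sensor and as a counterpart of human IFI16, was the other member lower on both arrays. Probe 2, the brighter one, had 583 and 529 in the Tie-2-Etv2 arrays and 4534 in the control. These are 4.49-fold and 8.64-fold lower signals, and here replicate 2 lay farther from the control than replicate 1. Probe 1 had 10.3 on replicate 1, which is not well above background, and 57.4 on replicate 2, against 770 on the control. On that probe the signal was at least 42.2-fold lower on replicate 1, and 13.5-fold lower on replicate 2. Such bounds set a dim probe at the lowest signal among detected probes of its array. Both probes thus put Ifi204 below the control, but by different amounts and with the replicates in the opposite order, -2.17 and -3.11 for probe 2, -5.44 and -3.76 for probe 1.

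Ifi203, an interferon-inducible nuclear protein gene, was the member with the largest difference above the control. Its brightest probe, probe 1, had 2099 on replicate 1 and 480 on replicate 2, against 86.0 on the control. The control was thus the lowest array and replicate 1 the highest, 42.2-fold above the control, with replicate 2 at 5.53-fold. Probe 4, whose sequence is given above, had 836 and 270 in the Tie-2-Etv2 arrays and 37.5 in the control, with differences of 5.27 and 2.83. Probe 3 had 131 and 34.5 against 5.72, the control not being well above background, so that the signal was at least 16.4-fold higher on replicate 1 and at least 2.48-fold higher on replicate 2. Over the brightest probe and probe 4, both detected on every array, the differences were 5.40 and 5.27 on replicate 1 and 2.47 and 2.83 on replicate 2. Probe 2 of Ifi203 was not well above background on any array.

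Mndal, which encodes a nuclear protein known in the mouse to restrain cell growth, was ordered as Ifi203 was. Its probe had 1767 on replicate 1 and 623 on replicate 2, against 390 on the control. The difference was 2.97 on replicate 1, 7.83-fold above the control, and 0.66 on replicate 2, a 1.58-fold difference under the 2-fold threshold. The mean of 1.81 ± 1.63 (SD, n = 2) has a spread close to its own size.

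Ifi202b encodes a protein with HIN domains and no pyrin domain, known in the mouse as an inhibitor of Aim2 and as a candidate gene for lupus in certain strains. On probe 2 it had 3.84 on replicate 1, which is not well above background, and 3143 on replicate 2, against 4047 on the control. Replicate 2 and the control were bright and within 1.30-fold of each other, and replicate 1 was at the floor of the array, at least 222-fold below the control. The second probe gave the same order, 5.41 and 2145 against 2688, and was at least 147-fold lower on replicate 1. With dim signals set at the lowest detected level, the differences on replicate 1 were -7.79 and -7.20, the lowest and the next lowest of all 26217 tested probes treated so. On replicate 2 the differences were -0.38 and -0.34.

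The Mnda probe showed the same pattern. The human gene of this name encodes a nuclear antigen of myeloid cells, and the transcript behind the mouse probe is now named Ifi211. Its signal was 9.40 on replicate 1, not well above background, and 1028 ± 103 on replicate 2, against 1036 ± 104 on the control, where the error is that of the scanner software for 1 array. Replicate 2 and the control thus lay within the software's error of each other, and replicate 1 was at least 56.8-fold below the control. Because the array files list an Ifi205 transcript for this probe as well, the values cannot be given to 1 of these genes alone.

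Detection on the control and on replicate 2 but not on replicate 1 was found for 2 members, Ifi202b and Mnda, and for 5.89% of all tested genes (1154 of 19583). With dim signals set at the lowest detected level of the array, 4 of those 1154 were at least 16-fold lower than control on replicate 1 and within 2-fold of it on replicate 2, a limit chosen after the values were seen. Ifi202b and Mnda had the lowest such differences of the 4, at -7.79 and -5.83. The others were an unnamed probe and Apoa4, a lipoprotein gene of visceral endoderm.

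Aim2, the cytosolic DNA sensor that recruits the adaptor Pycard and caspase-1, had 215 and 266 in the Tie-2-Etv2 arrays and 260 in the control. Relative to each array's percentile the differences were 0.51 and 0.02, within 1.43-fold on both arrays. Pyhin1, whose transcripts in the mouse are now named Ifi209, was dim throughout. Its probe 2 had 27.3 on replicate 1 and 8.89 on replicate 2, against 38.7 on the control, and only replicate 2 was not well above background, at least 3.48-fold below the control. Of its other probes, probe 3 was well above background on replicate 1 alone and probe 1 on no array, so neither was tested.

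**Figure D2:**
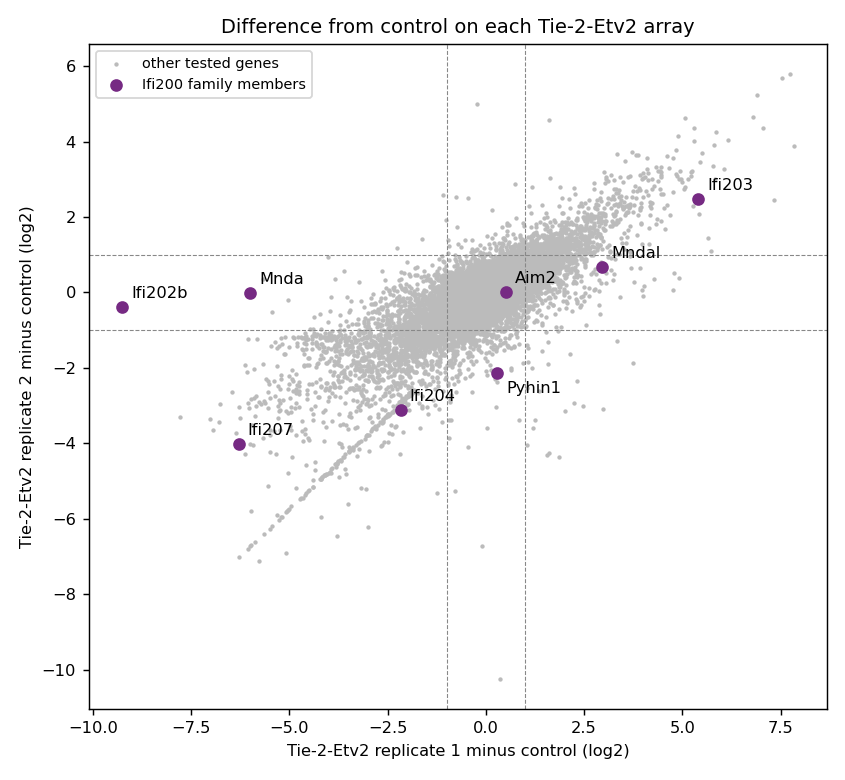
Difference from control on Tie-2-Etv2 replicate 1 (horizontal) against replicate 2 (vertical), both log2, with 1 point per tested gene and family members in purple. Dashed lines mark 2-fold differences; Ifi203 lies at 5.40 and 2.47, Ifi207 at -6.29 and -4.02, and Ifi202b at -9.25 and -0.38. The replicate 1 values of Ifi202b and Mnda come from signals not well above background and stand for bounds, -7.79 and -5.83 at the lowest detected level.

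Both differences of a gene share the single control array, so points along the diagonal do not stand for independent evidence. Of the 2068 genes that were at least 2-fold apart in the same direction on both arrays, 77.3% lay farther from the control on replicate 1. Ifi207 and Ifi203 did so too, and Ifi204 did not on its brightest probe.

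The members lie within 498 kb of chromosome 1, chr1:175396036-175893982 (mm9), in the order Aim2, Pyhin1, Ifi207, Ifi204, Mndal, Mnda, Ifi203 and Ifi202b. The array held 57 probes in this span, of which 37 were tested and 18 were detected on no array. Among the 37, 6 were at least 2-fold higher and 17 at least 2-fold lower on both Tie-2-Etv2 arrays, beside 3.82% and 6.26% of all tested probes. Of the 25 tested probes that belong to no member, 3 were higher and 14 lower. Detection on the control alone let a probe be tested, and such a probe could hardly be called other than lower. Both lower counts hold 4 plus-strand probes at Ifi207 that entered in this way. The shares over all tested probes rest on the same filter.

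All 14 lower probes that belong to no member lie around Ifi207. Besides interval probes they include a probe named by a transcript, with 8.38 on replicate 1, not well above background, and 29.6 on replicate 2, against 371 on the control. On the minus strand, which Ifi207 is transcribed from, 11 probes for unnamed transcribed intervals at Ifi207 were all detected on replicate 2 and on the control, and 8 of them on replicate 1. Their signals ranged between 5.62 and 673 on replicate 1 (median 30.5) and between 31.3 and 259 on replicate 2 (median 102), against 420 to 3214 on the control (median 942). These are unscaled signals of different probes at 1 locus, so the ranges reflect probe brightness as well, and replicate 1 was the dimmest array. The median difference was -4.74 on replicate 1 and -3.82 on replicate 2, and 9 of the 11 were at least 2-fold lower on both. On 3 of them replicate 1 was brighter than replicate 2. These had 372, 303 and 673 on replicate 1 and 223, 145 and 259 on replicate 2, against 1821, 797 and 1071 on the control. Of 5 plus-strand probes there, 4 were tested, and these were well above background on the control alone, at signals of 30.3 to 44.6.

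A second group of interval probes lies between Ifi204 and Mndal, at an interval without a gene name in the files. All 5 of its minus-strand probes were detected on every array. Of these, 2 were at least 2-fold higher on both Tie-2-Etv2 arrays. The first had 638 and 204 in the Tie-2-Etv2 arrays and 37.2 in the control, the second 1062 and 322 against 73.0. Another probe at the same interval had 1659 and 826 against 3815, and so lay below the control on both arrays, at -0.41 and -2.22. This lower probe shares 28 of 30 overlapping bases with Ifi204 probe 2, which lay below the control too, at -2.17 and -3.11. A further minus-strand probe inside this interval, named in the files by a transcript, had 383 and 154 against 427. Its differences were 0.63 and -1.48. Probes at 1 interval therefore differed in direction, and which transcript each of them reads was not tested.

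Among other named genes of the cluster, the brighter probe of Ifi208 had 498 and 836 in the Tie-2-Etv2 arrays and 690 in the control, within 2-fold on both. Another Ifi208 probe had 27.7 and 32.0 against 13.1, the control not being well above background, and the remaining Ifi208 probes were detected on no array. The probes of Ifi213 and Ifi214 were not well above background on any array.

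**Figure D3:**
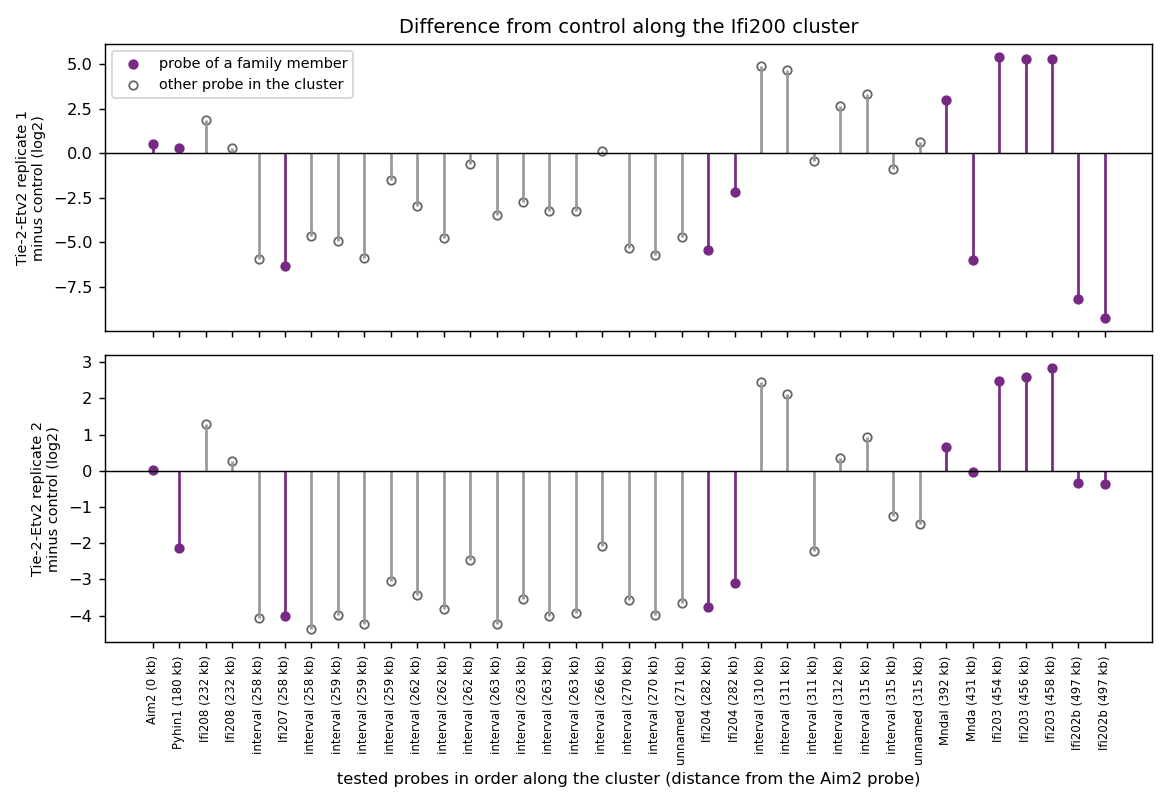
Difference from control (log2, vertical axes) of the 37 tested probes of the cluster in their order along the chromosome, with each label giving the distance from the Aim2 probe; the upper panel is Tie-2-Etv2 replicate 1, the lower panel Tie-2-Etv2 replicate 2, with different vertical scales. Purple points are member probes and open points other probes; from Ifi207 to Ifi204 all values are negative except 1 near 0 (0.12) on replicate 1, and Ifi203 is positive on both.

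Several probes of the cluster are near-copies of each other, and 4 pairs are shown because they bear on what a signal stands for. Capitals mark bases at which the probes of a pair differ where they overlap. The Ifi207 probe printed first above and an interval probe of the same coordinates differ by 1 base, A18T counted from the 5′ end of the Ifi207 probe.
Interval probe at Ifi207, same position: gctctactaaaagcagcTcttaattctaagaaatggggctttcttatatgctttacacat
Both gave alike differences, -6.29 and -4.02 for the Ifi207 probe, -5.93 and -4.06 for its near-copy. The next pair has 1 probe in an interval at Ifi207 and 1 in the interval between Ifi204 and Mndal, with 53 identical bases of 57 that overlap and a longest shared run of 34.
Interval probe at Ifi207, chr1:175653734-175653793: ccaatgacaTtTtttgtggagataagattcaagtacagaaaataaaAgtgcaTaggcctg
Interval probe between Ifi204 and Mndal, chr1:175706588-175706647: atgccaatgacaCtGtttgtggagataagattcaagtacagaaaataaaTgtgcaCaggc
The probe at Ifi207 had differences of -4.67 and -4.38, and the other had 4.65 and 2.13, so 4 unlike bases went with opposite directions. Another such pair shares 53 of 60 bases, with a longest shared run of 27.
Interval probe at Ifi207, chr1:175657539-175657598: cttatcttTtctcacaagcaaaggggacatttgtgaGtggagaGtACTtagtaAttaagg
Interval probe between Ifi204 and Mndal, chr1:175710909-175710968: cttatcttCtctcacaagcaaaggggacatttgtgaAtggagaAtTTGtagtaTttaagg
Here the differences were -2.94 and -3.43 at Ifi207, and 3.32 and 0.93 at the other interval. The last pair sets Ifi204 probe 1, printed above, against a probe of that interval, with 47 identical bases of 52 that overlap.
Interval probe between Ifi204 and Mndal, chr1:175706528-175706587: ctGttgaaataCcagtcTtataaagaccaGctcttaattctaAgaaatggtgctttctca
Ifi204 probe 1 had -5.44 and -3.76, and the interval probe 4.89 and 2.44. Over the 37 tested probes there were 7 pairs from different regions of the cluster with at least 30 overlapping bases and 80% identity. On replicate 1 the probes of 6 pairs had opposite signs. Each of the 7 pairs has a probe in the interval between Ifi204 and Mndal, and some of its probes recur, so the pairs are not separate comparisons. Cross-hybridisation between copies, and bases that differ between the strains in the mixed background, were not tested.

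Promoter sequences of the members are given as a description. The RefSeq table of assembly GRCm38.p6 holds 300-base windows, 250 before and 50 after a transcript start, for 8 of the 9 members, and Ifi204 is not among them. Capitals mark the interferon-stimulated response element (ISRE), searched on both strands as GAAA, any 2 bases and GAAA again. The windows of Ifi207, of the downstream start of Ifi203, of the upstream start of Mndal and of Ifi202b are given on their own strand, which is minus for all 4. They lie in GRCm38.p6 at chr1:173741760-173742059, chr1:173942443-173942742, chr1:173880138-173880437 and chr1:173982795-173983094, coordinates that are not those of mm9.
Ifi207: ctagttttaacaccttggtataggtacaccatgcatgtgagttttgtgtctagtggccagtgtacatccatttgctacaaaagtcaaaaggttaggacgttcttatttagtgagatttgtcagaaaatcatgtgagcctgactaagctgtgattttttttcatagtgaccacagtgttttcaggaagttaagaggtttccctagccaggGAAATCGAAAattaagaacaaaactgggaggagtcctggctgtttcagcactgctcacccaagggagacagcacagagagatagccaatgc
Ifi203: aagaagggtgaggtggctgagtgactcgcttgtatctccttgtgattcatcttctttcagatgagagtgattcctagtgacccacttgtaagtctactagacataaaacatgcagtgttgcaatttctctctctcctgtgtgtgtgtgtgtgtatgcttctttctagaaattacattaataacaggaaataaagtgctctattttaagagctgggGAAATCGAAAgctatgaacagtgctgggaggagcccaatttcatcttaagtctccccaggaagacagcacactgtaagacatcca
Mndal: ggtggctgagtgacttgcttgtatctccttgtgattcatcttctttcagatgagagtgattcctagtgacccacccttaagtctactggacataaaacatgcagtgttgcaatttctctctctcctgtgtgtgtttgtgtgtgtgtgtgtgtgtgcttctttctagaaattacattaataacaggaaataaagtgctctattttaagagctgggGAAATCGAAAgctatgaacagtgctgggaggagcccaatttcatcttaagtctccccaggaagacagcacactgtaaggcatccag
Ifi202b: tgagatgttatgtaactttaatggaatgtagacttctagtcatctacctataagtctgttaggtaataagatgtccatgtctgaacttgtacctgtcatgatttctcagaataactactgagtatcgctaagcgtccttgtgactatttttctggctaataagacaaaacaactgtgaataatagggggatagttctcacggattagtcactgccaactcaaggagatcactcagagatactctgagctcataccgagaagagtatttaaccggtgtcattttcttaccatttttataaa
The match begins at -41 in Ifi207, at -35 in Ifi203 and at -36 in Mndal, counted from the start. The windows of Ifi203 and Mndal were identical at 282 of 299 aligned positions (94.3%), and these members were ordered alike across the arrays. Those of Ifi207 and Ifi211, the current name behind the Mnda probe, were identical at 87.5%. Ifi207 was low on both Tie-2-Etv2 arrays and the Mnda probe on replicate 1 alone. Ifi207 and Ifi203 shared 58.6%, and Ifi207 and Ifi202b 57.2%. Ifi211 and Ifi205, both listed for the Mnda probe, shared 93.1%. Only these pairs were compared, among members picked on their differences. Whether promoter sequence has a part in those differences was not tested.

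An ISRE match was found in 3.44% of all 32851 promoter windows (1131), and in at least one window of 3.99% of the 27025 genes with a window. In the family 5 of the 8 members held a match in at least one window, namely Ifi207, Mndal, Ifi203, Ifi205 and the gene of the Mnda probe. Aim2, Ifi202b and Pyhin1 held none. Among those with a match, Ifi207 was low on both Tie-2-Etv2 arrays and Ifi203 high on both. Ifi202b held a GAS motif (TTCNNNGAA) at -148, which 8.30% of all windows hold. Aim2 held an ETS core (CCGGAAG) at -166 and a PU.1 motif (GAGGAAGT) at -113, which 8.86% and 3.20% of all windows hold. The AP-1 motif (TGANTCA), held by 7.81% of all windows, was found for Ifi203, Mndal and Pyhin1. A match describes letters in the window, not binding.

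Genes of the interferon pathway that act above or beside the family were followed as lists, by counts and medians, and no gene of any list passed limma. Each count of 2-fold genes stands beside the shares over all tested genes, 3.92% higher and 6.64% lower on both arrays. In lists of 16 or 18 tested genes a count of 2 is near those shares, and nothing is read from it. Among receptors, kinases and transcription factors of interferon signalling, 16 of 17 were tested, 2 were at least 2-fold lower on both arrays and none was higher. These were Irf5, with levels of -2.71 and -1.14 against 0.31 in the control, and Irf7, the interferon-induced factor that amplifies type I interferon, with -6.97 and -6.83 against -5.10. Irf7 was not well above background on replicate 1. The list's median difference was -0.42 on replicate 1 and -0.47 on replicate 2. The receptor genes Ifnar1 (-0.81 and -0.90) and Ifngr2 (-1.33 and -0.84) lay below the control on both arrays without reaching 2-fold on both.

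Among interferon-stimulated genes outside the family, 41 of 46 were tested, and 16 were at least 2-fold lower on both arrays while none was at least 2-fold higher on both. Their medians were -0.85 on replicate 1 and -1.05 on replicate 2, beside 0.08 and 0.05 for all genes. Ifit3, which encodes an RNA-binding antiviral protein, had levels of -9.13 and -8.86 in the Tie-2-Etv2 arrays, not well above background, against -5.67 in the control (limma adjusted p = 0.199). Mx1, an antiviral GTPase gene, had -9.08 and -6.92 against -4.25. Of the oligoadenylate synthetase family, Oas2 had -6.80 and -7.29 against -4.06 and Oasl1 -7.30 and -7.75 against -4.66. Mx1, Oas2 and Oasl1 were not well above background on replicate 1, nor Oasl1 on replicate 2. Some listed genes lay above the control on both arrays without reaching 2-fold on both, among them Ifitm1 at 1.95 and 0.28, Usp18 at 1.28 and 0.46 and Ifit2 at 1.08 and 0.70.

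The inflammasome list, which holds partners of Aim2, had 14 of 16 genes tested, with 3 at least 2-fold lower on both arrays and none higher, and medians of -0.19 and -0.34. Casp1, the caspase that matures interleukin-1β and interleukin-18, had levels of -3.20 and -1.64 against 0.57 in the control. The cytokine gene Il1a had -8.95 and -9.30 against -4.60, and Il18 had -7.39 and -6.79 against -2.89. Neither was well above background on replicate 1, nor Il1a on replicate 2. Nlrp3, a sensor that uses the same adaptor as Aim2, differed by -1.75 and -0.94. Pycard, that adaptor, had 1.95 and 2.22 against 2.19 in the control, differences of -0.24 and 0.03.

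Of the cytosolic DNA sensing genes, 18 of 19 were tested and 2 were at least 2-fold lower on both, with medians of -0.13 and -0.03. The 2 were Irf7 and Zbp1, a sensor of nucleic acids in the Z form that differed by -1.03 and -1.31. Samhd1, a nucleotide hydrolase (-0.87 and -0.92), and Tbk1, the kinase that activates Irf3 (-0.94 and -0.74), lay below the control and did not reach 2-fold. Sting1 had 1.67 and 1.46 against 1.49, and Cgas -0.63 and -0.96 against -0.44.

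**Figure D4:**
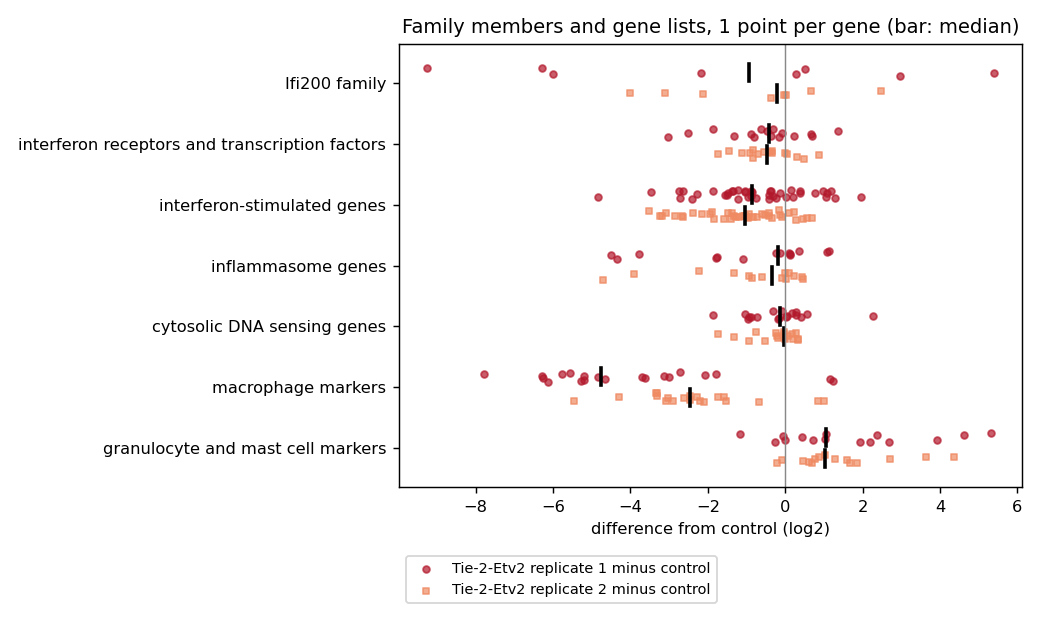
Difference from control (log2, horizontal axis) for family members and for genes of 6 lists, with 1 point per tested gene; circles are Tie-2-Etv2 replicate 1, squares Tie-2-Etv2 replicate 2, and black bars the medians. Family members reach from -9.25 to 5.40 on replicate 1, while most macrophage markers lie below 0 and most granulocyte and mast cell markers above 0 on both arrays.

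Markers of other cell types also differed between the arrays. Their counts stand beside the same shares of all tested genes, 3.92% higher and 6.64% lower on both arrays. Of 23 macrophage markers 20 were tested, and 17 were at least 2-fold lower on both Tie-2-Etv2 arrays, with medians of -4.75 and -2.46. The only one at least 2-fold higher on both was Lyz2, at 1.15 and 1.01. Their summed signal, in units of the array's 75th percentile, was 9.50 on replicate 1 and 21.8 on replicate 2, against 81.2 on the control. Adgre1, which encodes the macrophage antigen F4/80, had levels of -5.56 and -3.71 against 0.57. Mrc1, a mannose receptor gene, had -2.25 and -0.29 against 3.03. Markers not well above background included Mertk, Marco, Timd4 and Slc11a1 on replicate 1, and were Marco and Timd4 on replicate 2. On the control all 20 tested markers were well above background. Cd163, Siglec1 and Vsig4 were not tested. Most macrophage markers lay below the control, as Ifi207 and Ifi204 did. The list was farther below it on replicate 1, as Ifi207 was, while Ifi204 probe 2 was farther below it on replicate 2 (-2.17 and -3.11). The part of macrophage markers in the differences of Ifi207 and Ifi204 was not tested.

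Of the granulocyte and mast cell markers 15 of 20 were tested, and 7 were at least 2-fold higher and none lower, with medians of 1.06 and 1.02. S100a8, a calprotectin subunit gene, differed by 5.31 and 4.37, and Cpa3, a mast cell protease gene, by 3.91 and 2.71. Others of the list did not follow, among them Elane (-0.06 and -0.22), Prtn3 (-1.18 and 0.87) and Tpsb2 (-0.27 and -0.07). Ngp, Ly6g, Mmp8, Fcer1a and Ms4a2 were not tested. The list's summed signal in the same units was 67.3 and 67.9 in the Tie-2-Etv2 arrays and 29.6 in the control. Such sums weigh bright genes most, and Mpo had the highest level of this list on each array. Endothelial markers, all 20 tested, had 12 higher and 3 lower on both arrays, with medians of 2.37 and 1.30. Their summed signals were 54.7 and 27.0 against 12.002 in the control. Egfl7 weighed most in these sums, with the highest level of the list on each array, 5.39 and 4.42 against 3.06. Sox18, an endothelial transcription factor gene, had levels of 0.52 and -1.43 against -7.21, and Flt4, a receptor gene of lymphatic and embryonic vessels, -3.69 and -5.60 against -9.50, the control not being well above background for either. Lyve1 and Stab2, hyaluronan receptor genes of lymphatic, sinusoidal and some other cells, went the other way. Lyve1 had -5.32 and -4.10 against -1.34, and Stab2 -6.73 and -6.08 against -3.13, Stab2 not being well above background on replicate 1. The remaining lower marker was Vwf, with differences of -1.33 and -1.13. Emcn (2.07 and -0.29) and Cldn5 (2.41 and -0.34) lay above the control on replicate 1 and slightly below it on replicate 2. These 12 endothelial and 7 granulocyte and mast cell markers lay above the control as Ifi203 and Mndal did, and their part in those differences was not tested.

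Visceral endoderm markers, all 16 tested, had 13 lower on both arrays and none higher. Their medians were -4.22 on replicate 1 and -1.18 on replicate 2, and their summed signals 7.49 and 20.6 against 45.5 on the control. Replicate 1 was thus farther below the control than replicate 2 for this list, as for Ifi202b and Mnda. Macrophage markers had that order too (medians of -4.75 and -2.46). On replicate 2 Ifi202b and Mnda differed by only -0.38 and -0.02, while the 13 markers were at least 2-fold lower there as well. Whether these differences go together was not tested. Foxa2 and Apoa4 were the visceral endoderm markers not well above background on replicate 1. Trf had the highest level of that list on replicate 1 and so weighed most in its summed signal there, yet it differed by 0.01 and -0.62. Of 12 mesenchyme markers 10 were tested, with 6 lower, none higher and medians of -2.42 and -2.88. Of 20 lymphoid markers 9 were tested, with 1 higher, 3 lower and medians of -0.36 and 0.14.

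Among 17200 genes detected on all 3 arrays, those nearest to Ifi203 in the plane of both differences were Slit2 at 5.05 and 2.73, Hopx at 4.995 and 2.92, and Bcl6b, an endothelial zinc finger gene, at 4.77 and 2.66. The Euclidean distances were 0.44, 0.60 and 0.66 log2 units. Nearest to Ifi207 were Clec4a1, a C-type lectin gene of myeloid cells, at -6.01 and -4.01, and Adgre1 at -6.13 and -4.28, with distances of 0.28 and 0.31. The next was an unnamed interval at the Ifi207 locus itself, at a distance of 0.36. These are likenesses over 3 arrays that share 1 control.

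Outside the cluster, the nearest tested gene before Aim2 was Ackr1, a chemokine-binding receptor gene of red cells and venules, 134 kb away. It had signals of 93.5 and 90.9 in the Tie-2-Etv2 arrays and 10.04 in the control, the control not being well above background. Of the 4 next genes on that side, Slamf8, a myeloid surface receptor gene, had 4.34 and 7.12, neither well above background, against 44.7 in the control, and the others were not 2-fold apart in 1 direction on both arrays. The nearest tested gene after Ifi202b was the olfactory receptor gene Olfr433, 79.0 kb away, with 6.71 on replicate 1, not well above background, and 53.9 on replicate 2, against 72.0 on the control. Its differences of -2.63 and -0.43 had the order of Ifi202b at much lower signals. The next 4 genes on that side lay within 1.56 of the control on both arrays, Olfr220 at 0.53 and -0.08, Fmn2 at 1.56 and 0.86, Rgs7 at 1.38 and 0.78, and Fh1 at -0.21 and -0.01.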

How the data were processed

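Processed files of 3 arrays were used. Spot intensity values came from Agilent Feature Extraction, version 10.7.3.1 per the file headers and 10.7 per the submitters' processing notes. That software took off background and gave each spot a flag for being well above it. A further deposited table holds log2 values of unstated scale and centring. Between arrays, its differences equalled those of log2 intensity within 0.01 for 100% of probes, apart from constants of -0.756 (replicate 1) and 0.0161 (replicate 2), and every probe was centred on the median of the 3 arrays. Its column medians were 0.136, 0 and 0 for replicate 1, replicate 2 and the control, and its direction followed from that match.

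From the files, control spots and outlier spots (168 to 174 per array) were left out, spots of a probe were averaged as log2 processed signal, and each array was scaled on its 75th percentile among 22764 probes detected everywhere, since under 50% of probes were detected. Probes well above background on the control or on both Tie-2-Etv2 arrays were compared (26217 probes, 19583 genes), and a gene was represented by its brightest probe by mean of group means. Genes other than members were tested with limma 3.58.1 in R 4.3.3 (two-sided, Benjamini-Hochberg over all probes, 1 residual degree of freedom, 3.93 after moderation). With 2 arrays set against 1, the smallest p of an exact permutation test is 0.333. The fit was tested on simulated data. The arrays shared 1 slide and 1 scan, and their number limits the precision.

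A RefSeq table of GRCm38.p6 supplied current names (26576 probes by accession, 2607 by symbol, 492 by synonym; 26006 kept the name in the files). Promoters are from RefSeq, GRCm38.p6, and probe positions are mm9 per the file headers. Tables were handled with Python 3.11.15 and pandas 2.3.3.

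Members and gene lists were chosen with earlier results of these data known. Named were all members with every probe, Etv2, Tek, Cdh5 and Ptprc, up to 4 genes per list, ranked by whichever of both same-signed differences was nearer 0, and the 3 genes nearest in both differences to the highest and the lowest member. Tek, the gene behind the Cre promoter, differed by 3.04 and 2.02 (limma adjusted p = 0.288). The nearest tested genes on each side of the cluster were taken by position. Nnt and H2-Ea, known to differ between inbred strains, were looked at as well. The brightest Nnt probe differed by -0.06 and -0.28, another Nnt probe, detected on 1 array, by -1.13 and -0.92. H2-Ea was detected on no array. The remaining genes named were chosen after their values were seen. Alternatives were background correction (normexp, offset 50), scaling, filters and floors on dim probes, the deposited table, leaving out a replicate and other probes of a member.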

Additional observations from a re-analysis of the deposited data

How the results depend on the processing

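No alternative turned the direction of a member difference except for Pyhin1, at 0.29 with replicate 1 alone and 0.015 with normexp, against -0.92 for the mean. With normexp 614 genes passed limma, and with no filter 440, against 0 in the processing reported (2110 at an unadjusted p under 0.05). Genes at least 2-fold higher on both arrays numbered 312 with normexp, 1317 with no filter and 502 among probes detected on all 3 arrays, against 768, and genes lower 491 with normexp and 593 among probes detected on all 3 arrays, against 1300. Taking replicates alone, genes 2-fold higher ranged between 896 and 1775 and lower between 1634 and 2204, members higher between 1 and 2 and lower between 3 and 4. Over all alternatives the difference of Ifi203 ranged between 2.47 and 5.40, of Mndal between 0.66 and 2.97, of Ifi207 between -6.29 and -3.88, of Ifi204 between -4.60 and -2.17, of Ifi202b between -9.25 and -0.38, of Mnda between -5.99 and -0.02, of Pyhin1 between -2.13 and 0.29 and of Aim2 between 0.02 and 0.51. With normexp the median difference of the mesenchyme list was -0.69 against -2.67, of macrophage markers -2.31 against -3.71, of interferon-stimulated genes -0.44 against -0.90, of inflammasome genes -0.27 against -0.55 and of granulocyte and mast cell markers 0.74 against 1.18. Normexp also gave mean differences of -2.84 for Ifi202b and -1.68 for Mnda, against -4.81 and -3.01. Among probes detected on all 3 arrays the median was -1.64 for mesenchyme and -0.30 for inflammasome genes. Ifi202b, Mnda and Pyhin1 give no value among probes detected on all 3 arrays. Scaling on spike-in probes was chosen after seeing the data. Without a replicate no limma test could be run, as no residual degree of freedom is left. No paired analysis was possible because the control is 1 array without a replicate number. The control's own spread is unmeasured, and low signals near background give bounds only.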
